A study of Pisaster ochraceus with 50 samples.

Results

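The dermis of smaller and larger ochre sea stars (Pisaster ochraceus) was compared by RNA sequencing in asymptomatic wild animals. The 9 dermis libraries with a size group label were taken from 50 libraries in all: 5 carry the label S-SM (3 small and 2 medium animals) and 4 carry LXL-XL (2 large and 2 x-large animals). Each library is from a different animal, all were collected at McClures Beach, and none was feeding. How size was measured is not stated in the sources used here. Dermis libraries without this group label were left out of the tests. In the order used for all values below, the small animals are M0D055219G, M0D055220H and M0D055221I, the medium ones M0D055222J and M0D055224L, the large ones M0D055225M and M0D055226N, and the x-large ones M0D055228P and M0D055229Q.

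The dermis is the body wall of the sea star, in which skeletal ossicles lie in a connective tissue whose stiffness is under nervous control. It carries spines, skin gills and pincer-like pedicellariae, and it meets the sea water directly. Sea stars grow throughout life and can shrink when food is short, so body size need not follow age. The files name genes by identifier only, so no gene below can be given a name, a position, a sequence or a function.

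Depth overlapped between the groups, 1 of the composition measures did not, and single libraries stood apart. Gene reads averaged 486993 ± 96764 in the S-SM libraries (SD, n = 5) and 477134 ± 80678 in the LXL-XL libraries (n = 4), between 389821 and 611964 per library, so that 1 read stands for 1.63 to 2.57 CPM (counts scaled to a fixed library total). Of 8 library measures and tissue-list shares, the share of a tube feet list, described below, separated the groups fully and reached the smallest p that regrouping 5 and 4 libraries allows (two-sided exact permutation test, p = 0.0159). Adjusted over the 8 measures that is 0.127, so 1 measure alone could not pass in this design, and the adjusted values do not show that the groups are alike. The other 7 measures had exact permutation p of 0.0952 or more. In the large animal M0D055226N the 10 most abundant genes held 48.0% of the gene reads, against 14.8% to 25.2% in the other 8 libraries. The dermis label was checked with 100 genes that were enriched in dermis in 5 other animals. These genes held 1.66% to 5.83% of gene reads in the 9 libraries, against 0.0410% to 0.291% in tube feet (n = 8) and 0.00486% to 0.0129% in pyloric caecum (n = 10).

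The labels tie size partly to batch and color. Batch 2 holds 2 libraries of each group. Batches 1 and 4 hold only smaller animals and batch 3 only larger ones, so outside batch 2 these differences cannot be told apart. Of the S-SM animals 4 were orange and 1 was brown, and of the LXL-XL animals 1 was orange and 3 were brown.

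Few genes were called between smaller and larger animals. Of 14136 genes tested, 9 passed a false discovery rate of 0.01 (0.0637%; edgeR's quasi-likelihood test with Benjamini-Hochberg adjustment): 6 were higher in the S-SM animals (0.0424%) and 3 were lower (0.0212%). A further 4 genes passed a rate of 0.05, which makes 13 (0.0920%), and 794 had an unadjusted p under 0.05 (5.62%). The libraries of the groups did not overlap for 189 of the genes tested (1.34%), 92 of them higher (0.651%) and 97 lower in smaller animals (0.686%), and 4 of these were among the 9 called. With edgeR's own filter on low counts, 4034 genes were tested and none was called, with 215 at an unadjusted p under 0.05. None of the 20 most abundant genes was called.

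**Figure D1:**
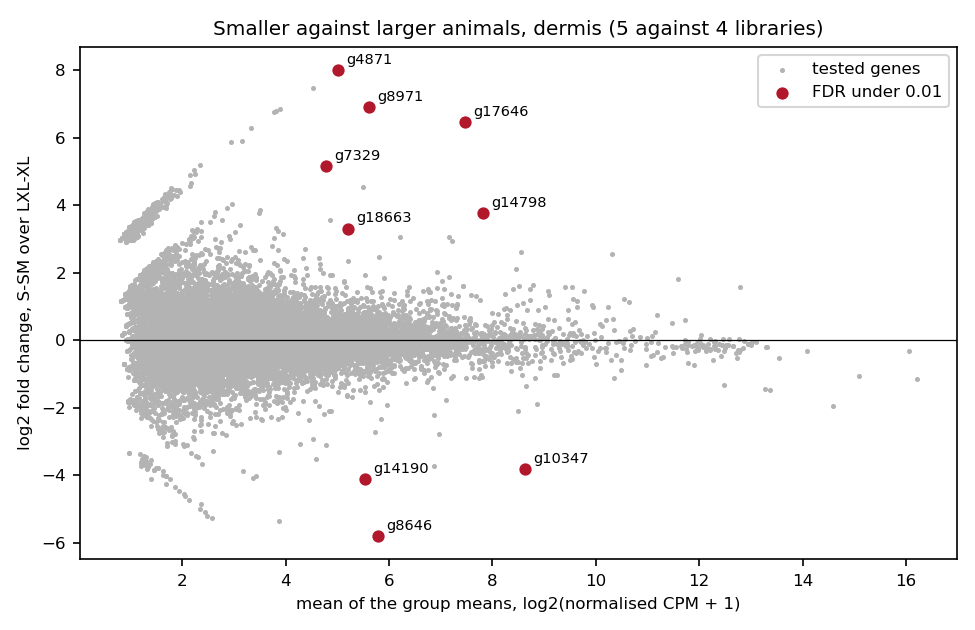
Log2 fold change of S-SM over LXL-XL (vertical axis) against the mean of both group means as log2 of normalised CPM plus 1 (horizontal axis) for the 14136 genes tested, with the 9 called genes in red. Of the called genes 6 lie above zero and 3 below, and the abundant genes at the right are all grey. The height of genes without a read in a group depends on the prior count of the fit.

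The main axes of variation crossed the size groups. The first principal component held 24.1% of the variance, and on it the 3 small animals scored 40.4 to 83.2 and the 2 x-large ones 24.9 and 60.3. The medium animals scored -95.5 and -74.2 and the large ones -45.0 and -55.0. This axis ran with the number of genes with a read: 10361 to 11355 genes in the 4 medium and large libraries and 12174 to 14210 in the 5 small and x-large ones. The next component held 16.8% of the variance and set M0D055226N apart, with a score of -129.

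**Figure D2:**
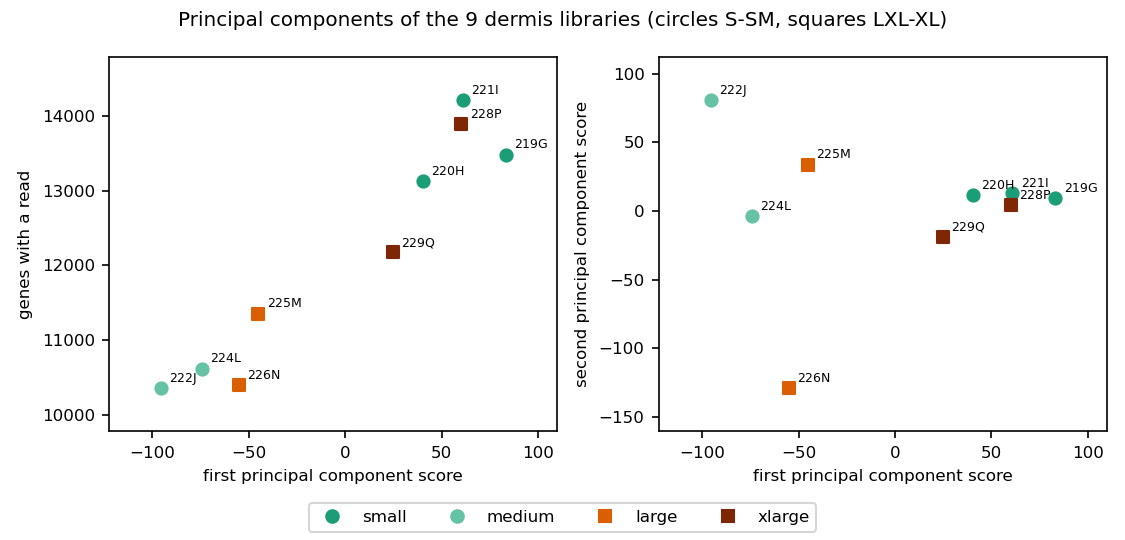
Genes with a read (left) and second principal component score (right) against the first principal component score in the 9 dermis libraries, colored by size class and marked with the last 4 characters of the animal name. Small and x-large animals lie at the right of both panels and medium and large animals at the left.

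Among the genes higher in smaller animals, g17646 had the smallest p. Its level, in CPM after TMM normalisation (normalised CPM, used for all levels below), was 369, 417 and 785 in the small animals, 6.09 and 161 in the medium ones, 0 and 7.60 in the large ones and 6.53 and 0 in the x-large ones. The group means were 348 ± 295 (SD, n = 5) and 3.53 ± 4.10 (n = 4). The log2 fold change was 6.47 with a standard error (SE) of 0.86 (adjusted p = 8.1e-05). All small animals and 1 medium animal were far above the larger ones, while the medium animal M0D055222J lay within their range. The call was kept in each of the 9 fits that left out 1 library (log2 fold change 5.88 without M0D055221I to 7.23 without M0D055228P), with batch as a covariate (7.04 ± 0.95, adjusted p = 2.3e-09) and with color (6.01 ± 0.88, adjusted p = 0.00041). Of 26 alternatives, 3 lost it: limma-voom, the robust edgeR fit and edgeR's filter on low counts, with adjusted p up to 0.587.

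The gene g18663 separated the groups without overlap. It was at 103, 67.3 and 74.7 normalised CPM in the small animals, 27.4 and 51.5 in the medium ones, 5.53 and 7.60 in the large ones and 2.61 and 12.4 in the x-large ones. The means of 64.8 ± 28.1 (SD, n = 5) and 7.04 ± 4.13 (n = 4) gave a log2 fold change of 3.31 ± 0.55 (adjusted p = 0.0023). Every smaller animal was above every larger one, and the small animals were above the medium ones. It is 1 of the 100 dermis-enriched genes. Without M0D055228P the adjusted p was 0.0142, and within batch 2 the log2 fold change was 3.29 ± 0.92 (adjusted p = 0.134). The call was lost in 9 of 26 alternatives, among them also batch, color, limma-voom and edgeR's filter on low counts.

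The groups did not overlap for g14798 either. It was at 1146, 329 and 242 normalised CPM in the small animals, 88.3 and 295 in the medium ones, 74.7 and 11.4 in the large ones and 32.7 and 4.97 in the x-large ones. The log2 fold change was 3.76 ± 0.63 (adjusted p = 0.0023). The lowest smaller animal and the highest larger animal were close, at 88.3 and 74.7, and 1 small animal, M0D055219G, stood high above the rest. Without that animal the log2 fold change was 2.98 (adjusted p = 0.0058), and without M0D055225M it was 4.53. Without M0D055226N the adjusted p was 0.0112, and within batch 2 the log2 fold change was 2.67 ± 0.76 (adjusted p = 0.155). The call was lost in 11 of 26 alternatives, among them batch, color, limma-voom and all asymptomatic dermis libraries by size. Of 4 asymptomatic large and x-large animals outside the comparison, 3 lay below the range of the smaller animals. The large M0D055227O, at 148, lay within it.

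In contrast to these genes, g7329 was highest in the medium animals. It was at 39.9, 18.7 and 12.4 normalised CPM in the small animals and 107 and 78.9 in the medium ones, against 5.53 in the large animal M0D055225M and no read in the other 3 larger animals. The 106 reads of the smaller animals against 2 of the larger ones gave a ratio per depth of 36.5 (exact 95% interval 9.85 to 305, which covers counting error only) and a log2 fold change of 5.16 ± 0.87 (adjusted p = 0.0023). No library of one group reached the range of the other. Without M0D055228P the ratio was 20.9, and without M0D055225M, which held both reads, it was at least 19.4. The call was kept in each fit that left out 1 library, and lost in 11 of 26 alternatives, among them batch as a covariate (3.73 ± 1.05, adjusted p = 0.121) and the fit of small animals alone against the larger ones.

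The other 2 genes higher in smaller animals were at or near 0 in the larger ones. The gene g4871 had 60.6, 65.5 and 178 normalised CPM in the small animals, 0 and 6.86 in the medium ones and no read in the 4 larger ones. Its 210 reads against a floor of 3 reads over the larger group make it at least 48.2-fold higher in smaller animals (adjusted p = 0.0023). The reads were almost all in small animals, and the medium animal M0D055222J was at 0 as the larger animals were. The small animal M0D055221I held 129 of them, and the bound was 25.7 without it and 27.6 without the larger animal M0D055228P. The call was kept in each fit that left out 1 library, with batch (adjusted p = 1.2e-05) and in batch 2. It was lost in 7 of 25 alternatives, among them DESeq2 (adjusted p = 0.620), limma-voom (0.118), the robust edgeR fit (0.807) and color (0.0338).

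The gene g8971 ranged widely among the smaller animals. It had 0, 307 and 134 normalised CPM in the small animals, 9.14 and 27.5 in the medium ones and 2.77, 0, 0 and 0 in the larger ones. The ratio per depth of 272 reads to 1 was 187 (exact 95% interval 33.3 to 7422), with an adjusted p of 0.0034. The small animal M0D055219G had no read, so the groups overlapped. The ratio was 93.6 without M0D055220H, 107 without M0D055228P and at least 49.8 without M0D055225M, and without M0D055226N the adjusted p was 0.0112. With M0D055223K and M0D055227O added by size the log2 fold change fell from 6.90 to 2.42 (adjusted p = 0.631), and with all asymptomatic dermis libraries it was 2.64 (adjusted p = 0.229). The call was also lost by DESeq2 (adjusted p = 0.620), limma-voom (0.703), the robust edgeR fit (0.714) and with color (0.0509), and kept with batch (0.00022). This gene is also among the dermis-enriched 100.

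Of the 3 genes higher in larger animals, g10347 alone separated the groups. It was at 9.64, 0 and 6.91 normalised CPM in the small animals, 94.4 and 158 in the medium ones, 365 and 858 in the large ones and 1212 and 525 in the x-large ones. The means of 53.8 ± 69.9 (SD, n = 5) and 740 ± 376 (n = 4) gave a log2 fold change of -3.83 ± 0.71 (adjusted p = 0.0063). Its class means rose from 5.52 in small animals through 126.2 in medium and 612 in large to 868 in x-large animals. Neither the small and medium animals nor the medium and large ones overlapped. The large and x-large animals did overlap.

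The call of g10347 was nevertheless not firm in this grouping, in which medium and small animals share a group. It was lost in 10 of 26 alternatives, among them without M0D055219G (adjusted p = 0.0146), with batch (-2.92 ± 0.71, adjusted p = 0.0259) and within batch 2 (-2.88 ± 0.81, adjusted p = 0.134). Without the medium animal M0D055224L the log2 fold change was -4.92 (adjusted p = 0.00035). It was the call that limma-voom kept. With color as a covariate it was also kept (-3.81 ± 0.65, adjusted p = 0.0029).

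The gene g14190 was highest in 1 x-large animal. This gene, of the dermis-enriched 100, was at 2.75, 7.48 and 1.38 normalised CPM in the small animals, 0 and 13.7 in the medium ones, 8.30 and 45.6 in the large ones and 26.1 and 264 in the x-large ones (log2 fold change -4.13 ± 0.73, adjusted p = 0.0034). The groups overlapped. Without the x-large animal M0D055229Q the log2 fold change was -2.46 (adjusted p = 0.570), and without M0D055219G the adjusted p was 0.0113. Without the medium animal M0D055224L the log2 fold change was -4.73. The call was lost in 10 of 25 alternatives. Batch as a covariate gave -2.11 ± 0.93 (adjusted p = 1.00), batch 2 alone -2.03 ± 1.08 (adjusted p = 0.998) and color -2.92 ± 0.74 (adjusted p = 0.162). With libraries added by size the call was kept, at -4.19 (adjusted p = 0.0060) with M0D055223K and M0D055227O and at -4.21 (adjusted p = 0.0069) with all asymptomatic dermis libraries. The 4 outside large and x-large animals were at 86.2, 8.76, 190 and 40.0 normalised CPM.

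For g8646, 1 large animal carried the difference. It was at 0, 0, 2.76, 0 and 6.86 normalised CPM in the smaller animals and at 406, 7.60, 9.15 and 0 in the larger ones (-5.80 ± 1.05, adjusted p = 0.0050). Without M0D055225M the log2 fold change was -1.69 ± 1.19 (adjusted p = 1.00), and without M0D055224L it was -6.61. Without M0D055219G the adjusted p was 0.0125, with color it was 0.538, and with batch the call was kept (-5.50, adjusted p = 1.9e-06).

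**Figure D3:**
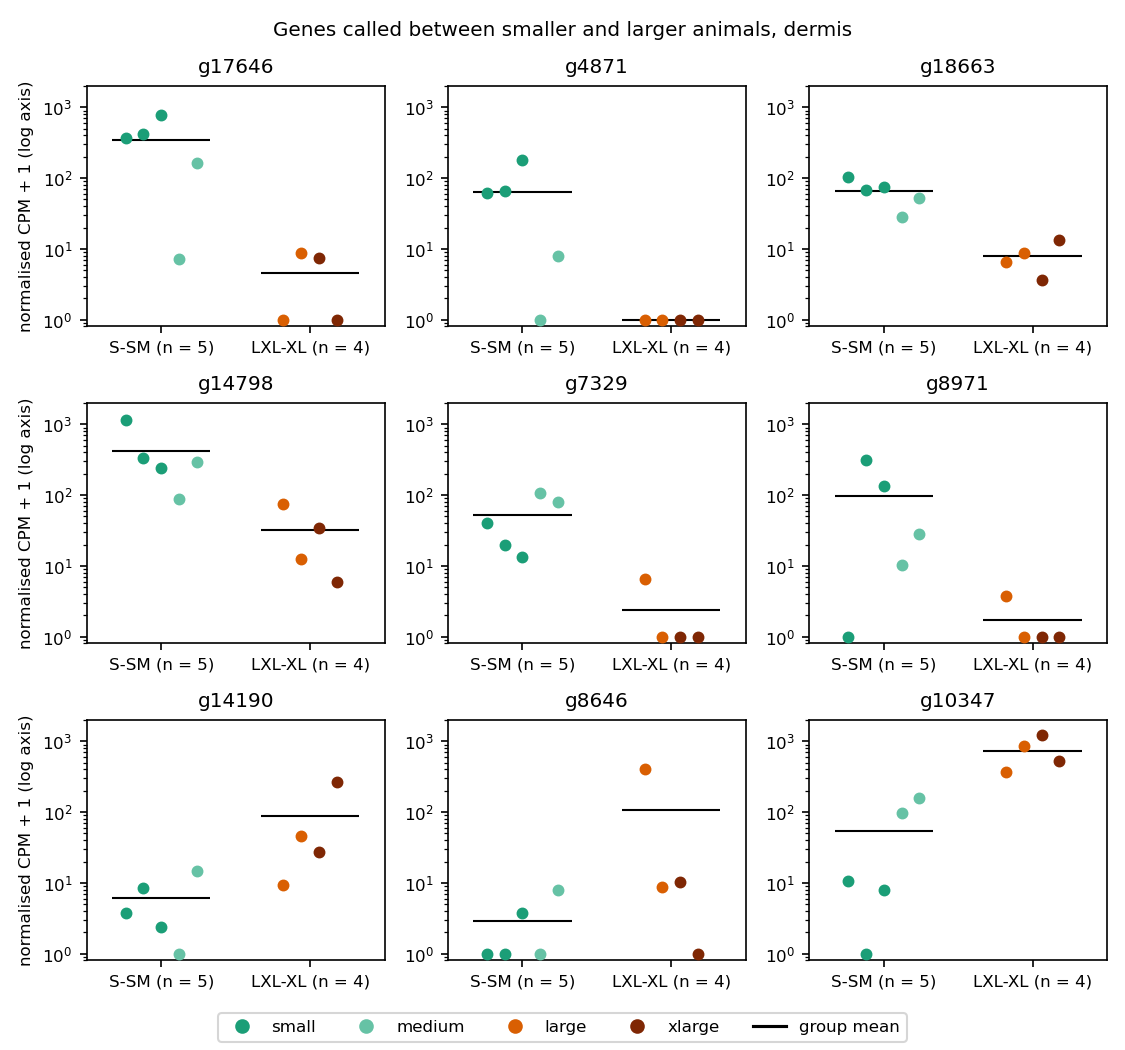
Normalised CPM plus 1 on a log axis in each library for the 9 genes called, S-SM at the left (n = 5) and LXL-XL at the right (n = 4), colored by size class, with bars at the group means. The groups do not overlap for g18663, g14798, g7329 and g10347, and g8646 is high in 1 large animal.

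The 4 genes between the thresholds of 0.01 and 0.05 were mostly genes of the small animals. The gene g21200 was at 452, 471 and 339 normalised CPM in the small animals, 21.3 and 20.6 in the medium ones, and 22.1, 22.8, 52.3 and 37.3 in the larger ones (log2 fold change 2.93 ± 0.63, adjusted p = 0.0489). Small animals stood apart, and medium animals were just below the larger ones. The gene g679 was at 30.3, 41.2 and 59.4 in the small animals. It had no read in the medium and larger animals of the comparison and was at least 19.96-fold higher in the smaller group (adjusted p = 0.0217). Without M0D055228P the bound was 11.4. In asymptomatic dermis outside the comparison g679 was at 3.04 in the medium animal and at 0 to 4.93 in the larger ones.

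The gene g3728 was read in all smaller animals, at 107, 11.2, 9.68, 6.09 and 3.43 normalised CPM. It had no read in the larger animals of the comparison and was at least 21.6-fold higher in the smaller group (adjusted p = 0.0217). In asymptomatic dermis outside the comparison it was at 12.2 in the medium animal and at 0 to 4.95 in the larger ones. The small animal M0D055219G held 78 of its 94 reads, and the bound was 5.09 without it and 12.4 without M0D055228P. The gene g1212 was lower in smaller animals, at 1.38 to 35.5 against 19.4, 467, 366 and 7.46 (-3.73 ± 0.73, adjusted p = 0.0143). Its groups overlapped, and the large animal M0D055226N and the x-large M0D055228P were high.

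Since medium animals often sided with larger ones, the size classes were also fitted as a slope over the 4 classes and as small animals against larger ones. The slope called 23 of 14136 genes (0.163%), 15 falling and 8 rising with size, and 7 of these were among the 9. Small against larger animals called 31 of 14304 (0.217%), of which 8 were among the 9. In 18 of the 23 genes both medium animals lay beyond the range of the small ones on the side of the slope. The class means were in order in 14. The same libraries chose the 23 genes, so both counts are partly built in, and the share over all genes was not taken. Genes named from these fits were chosen after their values were seen.

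Rising genes outside the 9 included g6826, g6036 and g14490. The gene g6826 was at 1.38, 9.35 and 0 normalised CPM in the small animals, 116 and 41.2 in the medium ones, 111 and 103 in the large ones and 414 and 226 in the x-large ones. Its slope was -1.78 ± 0.27 on the log2 scale for each class step toward small (adjusted p = 0.00016), where the grouped comparison gave an adjusted p of 0.136. All medium and larger animals were above all small ones.

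The gene g6036 rose from 8.26, 20.6 and 5.53 normalised CPM in the small animals to 57.9 and 120 in the medium ones, 274 and 110 in the large ones and 208 and 167 in the x-large ones (slope -1.34 ± 0.25, adjusted p = 0.0042). The gene g14490 had class means of 6.20, 41.7, 75.7 and 108 from small to x-large. For both genes the small animals lay below the other 6 of the comparison.

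Among genes that fell with size, g11513 was at 343, 165 and 328 normalised CPM in the small animals and 60.9 and 68.6 in the medium ones, against 12.4 to 98.7 in the larger ones (slope 1.10 ± 0.19, adjusted p = 0.0013). The gene g20110 was at 65.5 to 102 in the small animals and at 19.0 or lower in all others. In both genes medium and larger animals overlapped and small animals stood above them.

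A gene of high abundance showed the same divide. The gene g669, 10th in mean level, was at 90.9, 892 and 20.7 normalised CPM in the small animals, 17119 and 8530 in the medium ones, 14848 and 28375 in the large ones and 2415 and 12602 in the x-large ones. Small against larger animals gave a log2 fold change of -5.44 ± 0.92 (adjusted p = 0.00050), while the grouped comparison, with medium animals among the smaller ones, gave -1.44 (adjusted p = 1.00). No small animal reached the level of any other animal.

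Dermis libraries outside the comparison gave values that chose none of these genes. There were 5 asymptomatic ones without the size group label: the medium M0D055223K and the large M0D055227O, both not feeding, the feeding x-large M0D055231S and large M0D055232T, and the large M0D055234V from Lifeboat House. M0D055234V was purple and the other outside asymptomatic animals were brown, while all small animals were orange. Size and color thus cannot be told apart between the small animals and these. Of the 9 called genes, g18663, g7329 and g10347 had all 4 large and x-large outside animals beyond the range of the S-SM libraries, on the side of the LXL-XL ones. Over all genes tested, 249 did so (1.76%). The range of the S-SM animals took part in the calling of the 9 genes, so a share above that of all genes is partly built in. The medium outside animal M0D055223K was also below the S-SM range for g18663 and g7329, at 15.2 and 0 normalised CPM. For g10347 it was at 21.3, within that range.

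In the asymptomatic outside animals the values of g10347 ran in the order of the size classes. It was at 21.3 normalised CPM in the medium outside animal and at 394, 437, 475 and 1163 in the large and x-large ones. All of these lay above the small animals, and the 4 larger ones above every medium one. The 2 symptomatic animals were lower than asymptomatic animals of their class, at 37.8 in the large M0D055233U and 15.4 in the medium M0D055236X.

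The gene g17646 was low in every outside animal. It was at 3.04 normalised CPM in the medium one and at 2.58 to 12.3 in the larger ones, against 369 to 785 in the small animals. Among 5 asymptomatic animals outside the comparison and 6 medium or larger ones inside it, only M0D055224L, at 161, came near the small animals. For g8971 the outside values of 6.09 to 76.4 lay within the range of the smaller animals.

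Of the 23 genes of the slope, 20 had all 4 outside large and x-large animals beyond the range of the small ones, against 1141 of the 14136 genes tested on the side of their own slope (8.07%). The medium outside animal lay beyond the small ones for 16 of the 23, against 5614 of all genes (39.7%). The range of the small animals took part in the choice of the 23 genes, and the outside animals did not. All small animals were orange and no asymptomatic outside animal was, so color goes with size in these counts. For g669 the outside animals were at 9902 to 32118 normalised CPM, all above the 3 small ones, and the symptomatic medium animal was at 13.5.

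**Figure D4:**
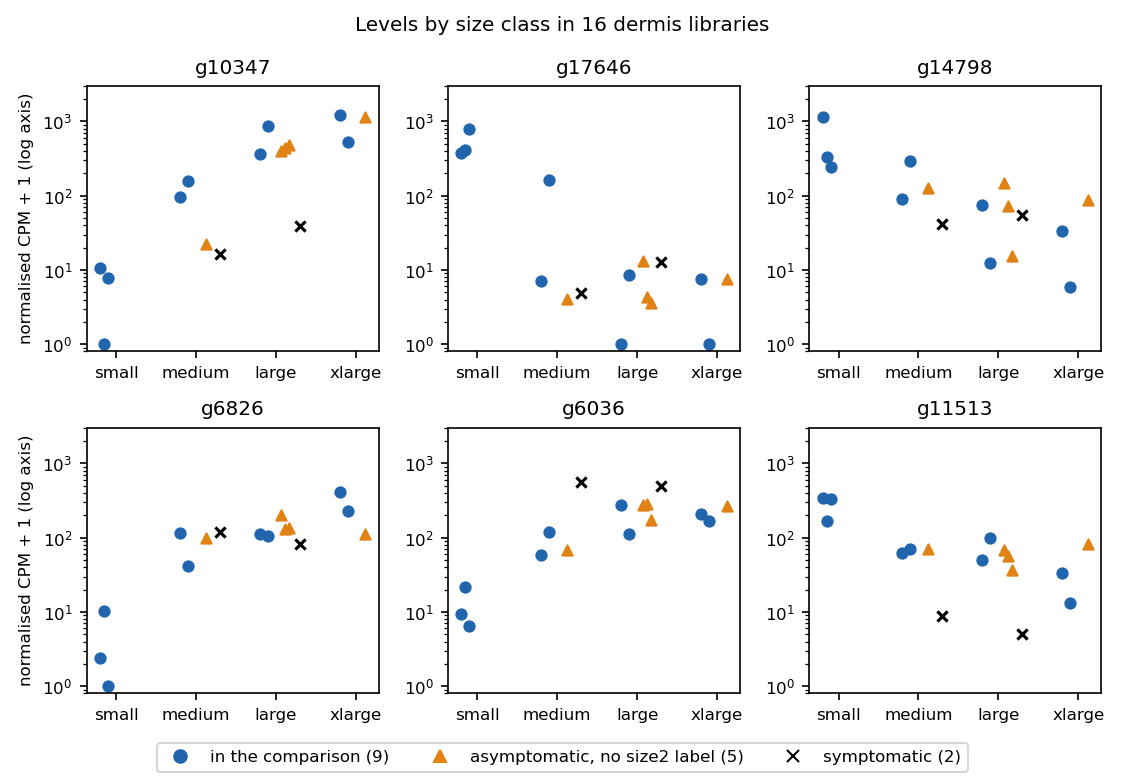
Normalised CPM plus 1 on a log axis by size class for 6 genes in 16 dermis libraries: the 9 of the comparison (circles), 5 asymptomatic ones without the size group label (triangles) and 2 symptomatic ones (crosses). For g10347, g6826 and g6036 small animals lie below all others, for g11513 above all others, and g17646 is high in small animals and in 1 medium one.

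The fit with batch as a covariate rested on batch 2, in which both groups occur, and it called other genes. It called 19 of 14136 genes (0.134%), 13 higher and 6 lower in smaller animals, with 4 of the 9 among them, and batch 2 alone called 18 of 13414 (0.134%). Color as a covariate gave 5 calls (0.0354%), of which 3 were among the 9. Of the 13 higher genes, 6 had their highest level of the 9 libraries in the asymptomatic medium animal M0D055224L. One of these, g9029, was at 2938 normalised CPM there and at 16.6 to 311 in the other 8. In all 6 genes both symptomatic dermis libraries lay above every asymptomatic one, for g9029 at 7394 and 18850. The S-SM libraries of batch 2 were M0D055221I and M0D055224L, and M0D055221I was highest for 5 of the 13 genes. A fit resting on batch 2 can favor genes that are high in either library, so the count of 6 is partly built in. The share over all genes was taken for neither pattern, and a link of M0D055224L to the symptomatic state was not tested.

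The same size groups were compared in tube feet, the hydraulic feet used to move and grip, and in pyloric caecum, the digestive gland. In tube feet (4 against 4 libraries, 7 animals shared with dermis) none of 15200 genes was called by edgeR's quasi-likelihood test, with 2025 at an unadjusted p under 0.05. In pyloric caecum (5 against 5, 9 animals shared) 27 of 12951 were called (0.208%), 5 higher and 22 lower in smaller animals. None of these 27 was among the 9 of dermis, of which only 5 were tested in pyloric caecum. With so few genes, a lack of overlap does not show that the tissues differ. The sign was that of dermis for 4 of these 5, and for 5 of the 8 tested in tube feet.

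The gene g10347 was lower in smaller animals in all 3 tissues without overlap, though only the dermis difference passed the threshold. In tube feet it was at 78.0 and 47.4 normalised CPM in small animals, 823 and 433 in medium ones, 2968 and 1402 in large ones and 2763 and 2100 in x-large ones (log2 fold change -2.73 ± 0.65, adjusted p = 0.0605). In pyloric caecum it was at 1.62 to 3.11 in smaller and 3.28 to 173 in larger animals (-4.05 ± 0.99, adjusted p = 0.0658). There M0D055229Q alone was at 173, and the other larger animals were at 3.28 to 9.52. The groups were close, at 3.11 and 3.28. The size effect in dermis minus that in tube feet was -1.22 ± 1.24 (adjusted p = 1.00), and minus that in pyloric caecum it was 0.17 ± 1.05.

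The size difference of g17646 was larger in dermis than in tube feet. Tube feet of smaller animals held 449 ± 219 normalised CPM (SD, n = 4) and those of larger animals 655 ± 289 (n = 4), and pyloric caecum held 0 to 3.11 in all 10 libraries. The size effect in dermis minus that in tube feet was 6.96 ± 1.06 on the log2 scale (adjusted p = 0.0017), the 1 gene of 15144 that passed (0.00660%). With the animal as a block 2 genes passed, g17646 (5.65, adjusted p = 0.0033) and g7329. Without the dermis library of M0D055225M or that of M0D055229Q no gene passed, with 833 and 632 at an unadjusted p under 0.05.

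Because g17646 belongs to a list of 100 tube feet genes drawn from the 5 other animals, that whole list was followed in dermis. It held 0.0821% ± 0.0346 of gene reads in smaller animals (0.0420% to 0.131%) and 0.0262% ± 0.0076 in larger ones (0.0166% to 0.0349%), a difference with an exact permutation p of 0.0159, or 0.127 adjusted over 8 measures. Without g17646 the shares were 0.0410% and 0.0259% (exact permutation p = 0.0635). The 5 animals behind the list were mostly large or x-large. A listed gene had to be lower in their dermis than in their tube feet. A higher share in dermis of smaller animals can thus be partly built in. In tube feet of smaller animals the list held 9.55% ± 1.02 (SD, n = 4) and g17646 was at 449 normalised CPM, against 0.0821% and 348 in dermis of the smaller group. Of its 5 animals 4 have a tube feet library, and M0D055221I, with the highest g17646 in dermis, has none in the data analysed here.

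Of the tube feet list, 52 genes were tested in dermis, 13 had no read in the 9 libraries, and 1 was called, g17646. The log2 fold change was positive in 38 and negative in 14, and their median was 0.28. Over all genes tested 54% were positive and the median was 0.06. A list of 100 pyloric caecum genes held 0.148% of gene reads in smaller and 0.0801% in larger animals (exact permutation p = 0.0952), against 18.1% in pyloric caecum. Of its 61 genes tested in dermis 51 were positive and 10 negative, their median was 0.82, and none was called. The 100 dermis-enriched genes were also more often positive, 62 against 38 negative, with a median of 0.48 and 3 called. The tube feet and pyloric caecum lists took genes lower in dermis than in their own tissue, in mostly large or x-large animals. Their positive signs and higher shares in smaller animals can thus be partly built in. The part of the 3 lists in the other called genes was not tested.

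The gene g7329 was abundant in pyloric caecum, at 199 ± 136 normalised CPM in smaller and 130 ± 117 in larger animals (SD, n = 5 and 5). There the size difference was 0.63 ± 0.60 on the log2 scale (adjusted p = 0.796). Its levels in dermis of smaller animals were 12.4 to 107. It is not on the pyloric caecum list. The size effect in dermis minus that in pyloric caecum was 4.54 ± 1.42 (adjusted p = 0.455), or 4.99 with the animal as a block (adjusted p = 0.0090).

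Between dermis and pyloric caecum 6 of 15144 genes differed in their size effect (0.0396%), none of them called in dermis. For g12386 dermis was at 17.2 and 5.90 normalised CPM in smaller and larger animals and pyloric caecum at 9.59 and 392, a difference of effects of 6.76 ± 1.02 (adjusted p = 0.00068). For g12619 dermis was at 373 and 525 and pyloric caecum at 42.8 and 0.805, a difference of -5.86 ± 0.87 (adjusted p = 0.00068). In both genes the size difference passed the threshold in pyloric caecum and not in dermis (adjusted p = 0.893 and 1.00 in dermis).

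**Figure D5:**
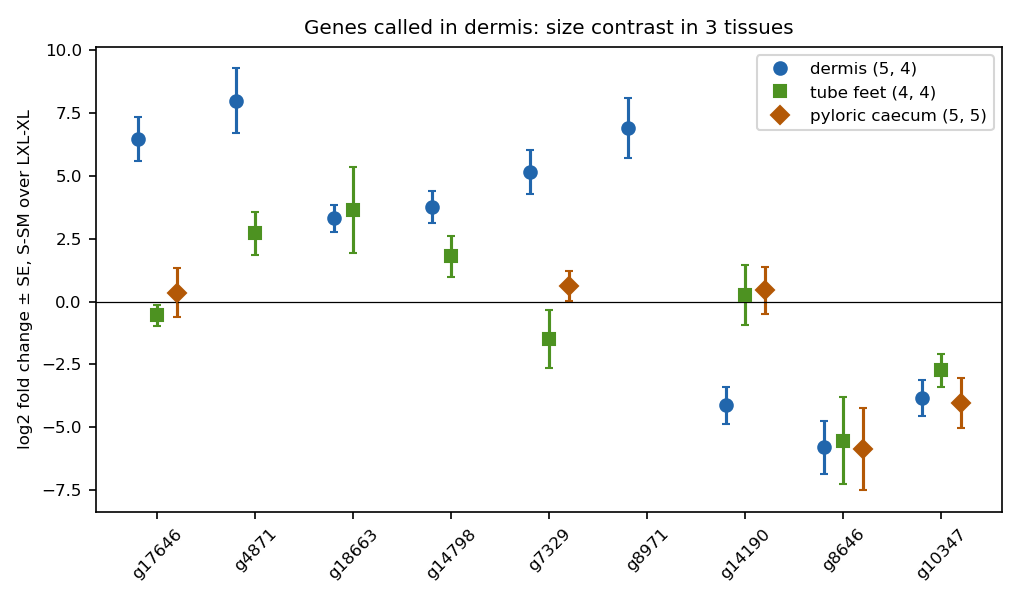
Log2 fold change of S-SM over LXL-XL with its standard error for the 9 genes called in dermis, in dermis (circles), tube feet (squares) and pyloric caecum (diamonds), where the gene was tested. The effect of g10347 is negative in all 3 tissues (-3.83, -2.73 and -4.05), and that of g17646 is 6.47 in dermis and -0.54 in tube feet.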

How the data were processed

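Each deposited file gives raw counts of reads for 21777 genes in 1 library. Per the submitters' processing notes, reads went through Trim Galore 0.4.4, TopHat2 2.0.13 and SAMtools 0.1.19, and edgeR was used. Per the labels, RNA came from the Qiagen RNeasy Mini Kit and libraries from Illumina TruSeq. The read counter, its use of strand, the build and the gene annotation were not given in the sources used here. Summary lines after the genes were left out of library sizes. Reads on no annotated gene made up 84.9% of counted lines in S-SM and 84.8% in LXL-XL libraries.

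The main test was edgeR's quasi-likelihood F-test (edgeR 4.0.16, R 4.3.3) on the 9 libraries with TMM normalisation, genes at a mean of at least 1 CPM (99.85% of gene reads) and a Benjamini-Hochberg false discovery rate under 0.01, the filter and threshold of the study's design text. Adjusted p-values are from edgeR unless another tool is named. Log2 fold changes are S-SM over LXL-XL, and SE is the log2 fold change over the square root of F. Effects between tissues were compared as a contrast of contrasts in 1 fit of 27 libraries. Printed levels were scaled over 16 dermis libraries or within the other tissue. Alternatives used limma 3.58.1 and DESeq2 1.42.0. The fits were tested on simulated data. Tissue lists came from asymptomatic animals outside the comparison.

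Named genes are those called with no overlap of the groups and at least 10 CPM in the higher one (up to 10 per direction), the 4 most abundant and the 3 with the smallest p per direction. For the tissue differences they are the 2 with the smallest p per direction. Others were chosen after their values were seen. Members, lists and tests were chosen with earlier results of these data known, g10347 included. Replicates are single animals. Tests on 5 and 4 animals measure the spread between them, and shared animals make tissues not independent. Fewer cells of a type and less RNA per cell cannot be told apart in bulk tissue.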

Additional observations from a re-analysis of the deposited data

Results flagged for a closer look

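Of 34 sets of values (the called genes and the library measures, each in 1 size group), 6 had a library far from the others. Chance gives about 1 in 20 only where values are normally distributed. Several called genes had an SD near or above the mean, so 6 of 34 cannot be read as an excess. In larger animals the values that stood apart were g8646 in M0D055225M at 406 normalised CPM, g7329 and g8971 in the same animal at 5.53 and 2.77, and g14190 in M0D055229Q at 264. The values of g7329 and g8971 are 2 reads and 1 read against 3 libraries at 0, where any read stands apart, so that rate does not hold for them. In smaller animals they were g14798 in M0D055219G at 1146 and the share of the dermis-enriched list in the medium animal M0D055222J, at 5.83% of gene reads.

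The size effect differed between tissues for 7 genes, by a test of the difference itself (edgeR, adjusted p under 0.01). For g17646, dermis minus tube feet was 6.96 on the log2 scale. For dermis minus pyloric caecum the differences were -5.86 for g12619, 6.76 for g12386, 4.95 for g18577, 8.18 for g6090, 6.24 for g14886 and 3.53 for g14849. The gene g6090 had 7 reads in dermis, at means of 3.38 and 0 normalised CPM in smaller and larger animals. Its 8.18 therefore depends on the prior count of the fit. The gene g14886 was at 64.1 and 27.7 normalised CPM in dermis of smaller and larger animals and at 113 and 3694 in pyloric caecum.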

How the results depend on the processing

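The directions of the 9 called genes held in all 229 fits of a gene under an alternative that gave an adjusted p, and the call was kept in 149 and lost in 80. DESeq2 gave g8646 no adjusted p. The count of 9 became 3 by DESeq2, 1 by limma-voom, 2 in the robust edgeR fit, 42 without a filter on low counts, 0 with edgeR's filter (4034 genes tested, 215 at an unadjusted p under 0.05), 1 against a minimum fold of 2, 1 with all 16 dermis libraries fitted, 2 with M0D055223K and M0D055227O added by size, 19 with batch (4 of the 9 among them), 5 with color, 18 in batch 2 alone, 23 as a slope over the size classes and 31 for small against larger animals. It was 9 with RLE scaling, 8 with upper-quartile scaling and 6 with all asymptomatic dermis libraries. Leaving out 1 library gave 7 to 17 calls, with 17 without M0D055222J, 15 without M0D055224L and 14 without M0D055225M. Without any scaling the median log2 fold change over all genes was 0.17 instead of 0.06.

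The count of 1 for dermis against tube feet was 2 with the animal as a replicate block, 3 at a rate of 0.05 and 0 to 2 leaving out 1 of the 27 libraries. The count of 6 for dermis against pyloric caecum was 11 with the replicate block (the same 6 among them) and 2 to 7 leaving out 1 library, with 2 without the dermis of M0D055228P. No paired analysis was possible because the S-SM and LXL-XL animals of dermis are different animals.

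The tube feet list difference of 0.0560 percentage points was 0.0133 with 50 genes (exact permutation p = 0.0635), 0.0151 without g17646 (0.0635), which was chosen after seeing the data, and 0.0437 to 0.0660 leaving out 1 library. The pyloric caecum list difference of 0.0680 was 0.152 in batch 2 and 0.0315 to 0.0892 leaving out 1 library. The dermis list difference of 0.259 was -1.25 in batch 2 and -0.490 to 0.874 leaving out 1 library, among them -0.0460. Leaving out 1 library also turned the sign of differences that missed the threshold: gene reads -21384 to 41232 (-10403, -19246 and -4232 within), reads on no gene -0.699 to 1.10 percentage points (-0.0670, -0.364, -0.557, -0.513), genes with a read -111 to 1049.9 (-56), the top 10 share -9.16 to 1.88 and the TMM factor -0.0260 to 0.249. The cause was not tested. At this depth 1 read is about 2 CPM, which limits all genes near 0.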

Other observations

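Among genes past a false discovery rate of 0.05, 4 are given here beside a gene with a nearby identifier and a like pattern, chosen after their values were seen. What order the identifiers follow, and whether such genes share reads, is not stated in the sources used here. Beside g8646, which was at 406 normalised CPM in the large animal M0D055225M, g8645 was at 105 in that animal and at 2.61 or lower in the other 8. Beside g4871, g4873 was at 30.3, 1.87 and 58.1 in the small animals and had no read in any other dermis library of the 16. Beside g3728, g3729 was at 380, 3.74 and 33.2 in the small animals and at 13.8 or lower in the other 6. Beside g679, g681 was at 33.1, 74.8 and 156 in the small animals and at 3.80 to 27.5 in the other 6.

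Some of the most abundant genes of dermis were high in 1 or 2 animals. These too were chosen after their values were seen. In M0D055226N g15 was at 269203 normalised CPM, against 21907 to 86352 in the other 8 libraries, and g14 was at 105801 against 3150 to 34572. The gene g536 was at 17926 and 16222 in the medium animals and at 1417 to 9895 in the other 7.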
